A study of Mus musculus with 4 samples.

Results

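Mature B cells of the mouse lung were described across inflamed and uninflamed lungs, with and without a low dose of X-rays to the chest. Cells were chosen by their raw UMIs (unique molecular identifiers, tags that count single captured RNA molecules). Those of Cd79a, Cd79b, Ms4a1 and Bank1 had to sum to at least 4, and those of Ms4a1, Ighd and Fcmr to at least 1. A chosen barcode had fewer than 5 UMIs of Jchain, which leaves out plasma cells, and none of Cd3e, Ncr1, C1qa, Marco, Csf3r, Siglech and Cdh5, genes of T cells, natural killer (NK) cells, macrophages, neutrophils, plasmacytoid dendritic cells and endothelium. The rule found 1474 B cells among 34440 barcodes that passed the filters on UMIs, genes and mitochondrial share. Because the values of these genes chose the cells, they are given as description and support nothing.

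The study combined intratracheal lipopolysaccharide (LPS, the endotoxin of Gram-negative bacteria and a standard trigger of acute lung inflammation) with thoracic irradiation (RT) in wild-type male C57BL/6 mice of 6 to 7 weeks. The LPS+RT group received 200 µg LPS from E. coli O55:B5 and, on the next day, 1 Gy of X-rays to the thorax. The LPS group received the same LPS and no irradiation. The PBS+RT group received 100 µL of phosphate-buffered saline (PBS) and 1 Gy. The PBS group received saline alone. Lungs were taken at 48 h in every group, 24 h after irradiation in the irradiated ones. Every lung was dissociated enzymatically, passed over a Ficoll layer that enriches mononuclear cells, and sequenced with the 10x Genomics 3′ kit, which reads the tail end of each captured RNA. Each group is 1 library, and the number of mice behind a library is not stated, so a group and its library cannot be told apart. There is no replicate, no difference below has a test, and every interval is an exact 95% interval that covers counting error only.

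Mature naive B cells carry membrane IgM and IgD, recirculate between blood, spleen and lymph nodes, and many of those in a healthy lung lie in its blood vessels. Antigen binding, bacterial endotoxin through Toll-like receptors and cytokines such as interferon-gamma each switch on partly different gene programs in them. Resting lymphocytes are also known as radiosensitive cells in which DNA damage stabilises the transcription factor p53, which turns on genes of cell cycle arrest and cell death.

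The LPS+RT library held 349 B cells, or 3.52% (3.17 to 3.90) of its 9917 barcodes, and the LPS library 375, or 4.10% (3.71 to 4.53) of 9139. The PBS+RT library held 309, or 4.87% (4.35 to 5.43) of 6345, and the PBS library 441, or 4.88% (4.44 to 5.34) of 9039. The share was 0.84 times (0.73 to 0.97) as high in LPS as in PBS, and 0.72 times (0.62 to 0.84) as high in LPS+RT as in PBS+RT. It was 1.00 times (0.86 to 1.16) as high in PBS+RT as in PBS and 0.86 times (0.74 to 0.99) as high in LPS+RT as in LPS. These ratios depend on the denominator, since neutrophils fill much of the LPS library: among barcodes without neutrophils the LPS to PBS ratio was 1.11, and among barcodes with a UMI of Ptprc, the pan-leukocyte CD45, it was 0.44. With the same denominators the ratio of LPS+RT to LPS was 0.68 and 1.28. A lower or higher share of B cells was therefore not settled for these comparisons. The B cells had a median of 5200 UMIs in LPS+RT, 5079 in LPS, 7873 in PBS+RT and 5527 in PBS. Summed over the B cells the depth was 1950584 UMIs in LPS+RT, 2034241 in LPS, 2640264 in PBS+RT and 2731871 in PBS. Hemoglobin and other erythroid markers, RNA of red cells, summed in the B cells to 77.4 CPM (UMIs divided by all UMIs of the B cells in the library, times 1000000) in LPS+RT, 27.0 in LPS, 3777 in PBS+RT and 1351 in PBS, so the libraries also differed in RNA from other cells. Many B cells held at least 5 UMIs of myeloid, stromal, epithelial, endothelial or erythroid genes. Without thinning, they numbered 123 (35.2%) in LPS+RT, 31 (8.27%) in LPS, 51 (16.5%) in PBS+RT and 206 (46.7%) in PBS. In PBS, 155 B cells held as many UMIs of epithelial genes.

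Genes that the rule did not use matched the B cell label. After thinning each cell to 1000 UMIs, Pax5, the factor that fixes B cell identity, was found in 49.7% of 1472 B cells and in 0 of 1087 T cells, which allows up to 0.276% of T cells. Ebf1, its partner in early B cell development, was found in 93.5% against 0.920%, and Cd74, the invariant chain of MHC class II, in 97.5% against 5.15%. The T cells had been chosen with no UMI of Cd79a or Ms4a1, so the low shares of B cell genes in them were partly fixed in advance. The T cells were deeper before thinning, with medians of 7794 UMIs in LPS+RT, 9373 in LPS, 10490 in PBS+RT and 8481 in PBS. Few barcodes lay at the threshold of the marker sum. Of those with a marker sum of 3, just outside, there were 1 in LPS+RT, 5 in LPS, 0 in PBS+RT and 4 in PBS, and of those with a sum of 4, just inside, there were 2 in LPS+RT, 0 in LPS, 0 in PBS+RT and 4 in PBS. The median sum of the accepted cells was 26 in LPS+RT, 29 in LPS, 44 in PBS+RT and 31 in PBS. The genes of other types left out more barcodes that met the rest of the rule. These were 167 in LPS+RT, 113 in LPS, 116 in PBS+RT and 174 in PBS. With them kept, the share of B cells was 0.97 times (0.86 to 1.11) as high in LPS+RT as in LPS, and 0.78 times (0.70 to 0.89) as high in LPS as in PBS.

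Ighm and Ighd were both found in 1256 of 1474 B cells (85.2%), a share that the rule's use of Ighd partly fixes. Fcer2a, the low-affinity IgE receptor CD23 of follicular B cells, or Cr2, the complement receptor CD21, was found in 1020 (69.2%), against 1.10% of T cells. A switched isotype led in 7 cells (0.475%). Kappa was the leading light chain in 1187 cells (80.5%) and lambda in 133 (9.02%), with too few light chain UMIs in the rest. At 1000 UMIs per cell, Fcer2a or Cr2 was found in 28.9% of B cells in LPS+RT, 29.0% in LPS, 23.9% in PBS+RT and 24.3% in PBS, and the intervals overlapped. Levels below are CPM. Fcer2a stood at 223 CPM in LPS+RT, 229 in LPS, 205 in PBS+RT and 210.1 in PBS, and none of the 4 comparisons differed beyond counting error. Ighd, which the rule used, stood at 618 CPM in LPS+RT, 553 in LPS, 639 in PBS+RT and 559 in PBS.

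The interferon-gamma response genes Irf1, Gbp2, Gbp7 and Serpina3g and the p53 target genes Ccng1 and Bax carry several results below. A stretch of 150 bases of the promoter of each is shown because it holds a match to a motif of a factor of the pathway. For p53 the match is to a half-site only. The sequences are RefSeq promoter windows of build GRCm38.p6, written 5′ to 3′ on the strand of the gene. Capitals mark matches to GAS (TTCNNNGAA, the gamma interferon-activated site), to ISRE (a pair of GAAA with 2 bases between them, the site of interferon regulatory factors, on either strand) or to the p53 half-site. The stretches of Irf1, Gbp2, Gbp7 and Serpina3g are the 150 bases before the RefSeq start, on the plus strand. Those of Ccng1 and Bax run from 250 to 101 bases before it, on the minus strand. Irf1 lies at chr11:53769864-53770013, Gbp2 at chr3:142620513-142620662, Gbp7 at chr3:142530186-142530335 and Serpina3g at chr12:104235997-104236146. The gene start of Gbp2 given below comes from another annotation and lies inside this stretch of Gbp2. Ccng1 lies at chr11:40755387-40755536 and Bax at chr7:45466999-45467148.
Irf1: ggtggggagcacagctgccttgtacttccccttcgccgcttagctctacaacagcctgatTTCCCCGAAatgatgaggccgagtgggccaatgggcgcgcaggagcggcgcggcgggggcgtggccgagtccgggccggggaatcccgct
Gbp2: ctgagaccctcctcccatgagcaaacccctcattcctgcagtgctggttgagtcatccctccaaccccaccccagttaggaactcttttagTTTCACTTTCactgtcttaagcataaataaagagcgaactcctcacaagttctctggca
Gbp7: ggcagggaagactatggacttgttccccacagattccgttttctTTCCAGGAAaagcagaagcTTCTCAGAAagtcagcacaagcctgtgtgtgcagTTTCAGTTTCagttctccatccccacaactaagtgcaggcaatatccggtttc
Serpina3g: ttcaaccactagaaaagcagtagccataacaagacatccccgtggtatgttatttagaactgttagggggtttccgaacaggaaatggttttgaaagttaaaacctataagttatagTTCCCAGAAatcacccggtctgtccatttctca
Ccng1: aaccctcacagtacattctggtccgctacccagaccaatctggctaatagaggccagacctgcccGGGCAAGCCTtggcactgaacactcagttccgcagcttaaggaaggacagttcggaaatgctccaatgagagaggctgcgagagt
Bax: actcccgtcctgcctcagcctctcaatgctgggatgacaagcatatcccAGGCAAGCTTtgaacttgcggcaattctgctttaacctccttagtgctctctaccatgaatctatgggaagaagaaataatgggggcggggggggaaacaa

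The matches lie 90 to 82 bases before the start in Irf1 (GAS), 59 to 50 in Gbp2 (ISRE), 33 to 25 in Serpina3g (GAS) and 185 to 176 in Ccng1 and 201 to 192 in Bax (p53 half-sites). Gbp7 holds a GAS at 106 to 98 and another at 87 to 79, and an ISRE at 53 to 44. No match shown overlaps another. Among the interferon-gamma genes with a promoter window of 300 bases, 9 of 19 (47.4%) held a GAS, against 9.55% of 27025 genes, and 11 of 19 (57.9%) held an ISRE, against 3.99%. Among p53 targets, 11 of 24 (45.8%) held a half-site, against 9.55% of all genes. These are matches of letters on both strands and not sites of measured binding.

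The LPS and PBS libraries compare inflamed with uninflamed lungs without irradiation. B cells of the LPS library stood apart by their interferon-gamma response genes: of 12 list members that passed the filter of a mean of 20 CPM over the libraries, 8 were at least 1.5-fold higher and 0 as much lower, and the median log2 ratio was 1.39. Over all 6068 genes tested, 15.3% were as much higher and 6.41% as much lower, and the median was 0.18. The mean used by the filter includes the LPS library, and Gbp2 and Serpina3g were under 20 CPM in every other library. The filter therefore partly fixed the count and median of the 12. The other 13 listed genes fell under the filter and summed to 80.0 CPM in LPS+RT, 288 in LPS, 88.3 in PBS+RT and 63.0 in PBS, 4.58-fold higher (3.85 to 5.46) in LPS than in PBS. All 25 together summed to 813 CPM in LPS+RT, 1746 in LPS, 799 in PBS+RT and 756 in PBS, with LPS 2.31-fold above PBS (2.19 to 2.44). Of these 25, taken without the filter, 24 had an LPS to PBS ratio above 1 and 0 below 1. Only the LPS library stood high, and LPS+RT, PBS+RT and PBS lay close together.

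Irf1 (ENSMUSG00000018899, chr11:53770014-53778374, plus strand), a transcription factor that interferons induce and that drives further interferon genes, measured 69.7 CPM in LPS+RT, 203 in LPS, 56.1 in PBS+RT and 64.8 in PBS, with an LPS to PBS ratio of 3.13 (2.61 to 3.75) and UMIs in 79 of the LPS+RT, 158 of the LPS, 98 of the PBS+RT and 127 of the PBS B cells. The LPS library was the high one for Irf1, and the other 3 lay close together. Nlrc5 (ENSMUSG00000074151, chr8:94434356-94527272, plus strand), the transactivator of MHC class I, measured 23.6 CPM in LPS+RT, 88 in LPS, 26.5 in PBS+RT and 23.1 in PBS, a ratio of 3.82 (2.85 to 5.17). Serpina3g (ENSMUSG00000041481, chr12:104236245-104241939, plus strand), a serine protease inhibitor of activated lymphocytes, measured 16.4 CPM in LPS+RT, 61.9 in LPS, 14.8 in PBS+RT and 13.2 in PBS, a ratio of 4.7 (3.22 to 7.01). Each of these was found in more cells of the LPS library than of any other.

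Guanylate-binding proteins are interferon-induced GTPases that attack the membranes of intracellular microbes. Gbp2 (ENSMUSG00000028270, chr3:142620602-142638008, plus strand) measured 10.3 CPM in LPS+RT, 68.8 in LPS, 8.71 in PBS+RT and 10.6 in PBS, a ratio of 6.48 (4.32 to 10.0), although 5 cells held 46.4% of its UMIs in LPS. Gbp7 (ENSMUSG00000040253, chr3:142530342-142550149, plus strand) measured 12.8 CPM in LPS+RT, 49.2 in LPS, 24.2 in PBS+RT and 12.4 in PBS, a ratio of 3.95 (2.65 to 6.01). Gvin1 (ENSMUSG00000045868, chr7:106156556-106215326, minus strand), a very large interferon-inducible GTPase outside the list, measured 7.69 CPM in LPS+RT, 45.2 in LPS, 21.2 in PBS+RT and 9.88 in PBS, a ratio of 4.58 (2.95 to 7.31). Gbp3 measured 15.9 CPM in LPS+RT, 27 in LPS, 20.5 in PBS+RT and 22 in PBS and stayed under 1.5-fold, with a ratio of 1.23 (0.838 to 1.81). Cd274, the checkpoint ligand PD-L1, measured 98.9 CPM in LPS+RT, 193 in LPS, 83.3 in PBS+RT and 88.2 in PBS, a ratio of 2.19 (1.86 to 2.58), and Irf8, a lineage factor of B cells and myeloid cells, measured 126 CPM in LPS+RT, 224 in LPS, 100.4 in PBS+RT and 134 in PBS, a ratio of 1.67 (1.45 to 1.92). The interferon-gamma receptor chains themselves were under the threshold, with LPS to PBS ratios of 1.25 (1.04 to 1.5) for Ifngr1 and 1.38 (1.12 to 1.7) for Ifngr2, and so was Ciita, the master regulator of MHC class II, at 1.02 (0.837 to 1.23).

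**Figure D1:**
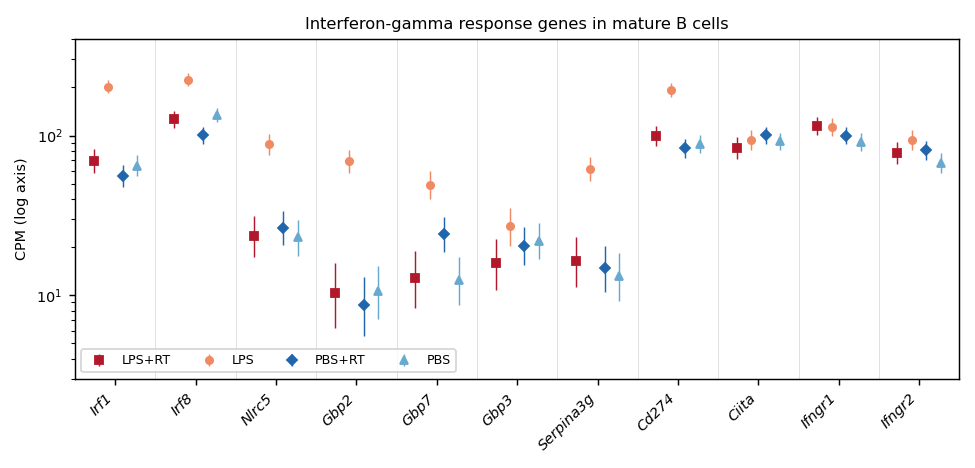
Level of 11 of the 12 interferon-gamma response genes that passed the filter in B cells of the 4 libraries, in CPM on a log axis, with bars for the exact 95% Poisson interval of the count. Irf1 stands at 203 CPM in LPS and between 56.1 and 69.7 CPM in the other 3 libraries, and Ciita, Ifngr1 and Ifngr2 lie close together in all 4.

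The same genes were spread over many B cells. At 1000 UMIs per cell, at least 3 UMIs of the interferon-gamma list were found in 26 of 349 cells (7.45%) in LPS+RT, 78 of 373 (20.9%) in LPS, 25 of 309 (8.09%) in PBS+RT and 33 of 441 (7.48%) in PBS. The 5 B cells with most UMIs of the list held 9.39% of them in LPS+RT, 13.5% in LPS, 8.67% in PBS+RT and 5.04% in PBS. Among LPS cells the summed level was 1743 CPM in cells with a UMI of Fcer2a or Cr2 and 1752 CPM in those with none, so the higher level was present with and without these follicular markers. LPS was the highest library in other cells too: neutrophil-marked barcodes had Gbp2 at 38 CPM in LPS+RT, 439 in LPS, 16.7 in PBS+RT and 17.8 in PBS. The 9 neutrophil markers summed in the B cells to 126 CPM in LPS+RT, 381 in LPS, 69.3 in PBS+RT and 63.7 in PBS, at 4.08% of their level in the other LPS barcodes, with Csf3r at 0 by the rule. Their part in the result was not tested.

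Of 7 type I interferon genes tested of 26 listed, 3 were at least 1.5-fold higher in LPS than in PBS and 0 lower, with a median log2 ratio of 0.23 beside 0.18 over all genes. The 17 members under the filter summed to 115 CPM in LPS+RT, 178 in LPS, 78.4 in PBS+RT and 87.5 in PBS, 2.04-fold higher (1.73 to 2.41) in LPS than in PBS, and all 24 in the table summed to 1.05 times (0.982 to 1.13) their PBS level. Of these 24, 20 had a ratio above 1. Stat2, a transcription factor of type I interferon signalling, measured 24.6 CPM in LPS+RT, 54.1 in LPS, 32.6 in PBS+RT and 34.4 in PBS, an LPS to PBS ratio of 1.57 (1.18 to 2.09). Ifi213, a nucleic acid sensor of the interferon-inducible p200 family, measured 32.8 CPM in LPS+RT, 42.3 in LPS, 49.99 in PBS+RT and 19.8 in PBS, a ratio of 2.14 (1.5 to 3.06). Ifi213 was high in 3 libraries against PBS, unlike Irf1.

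**Figure D2:**
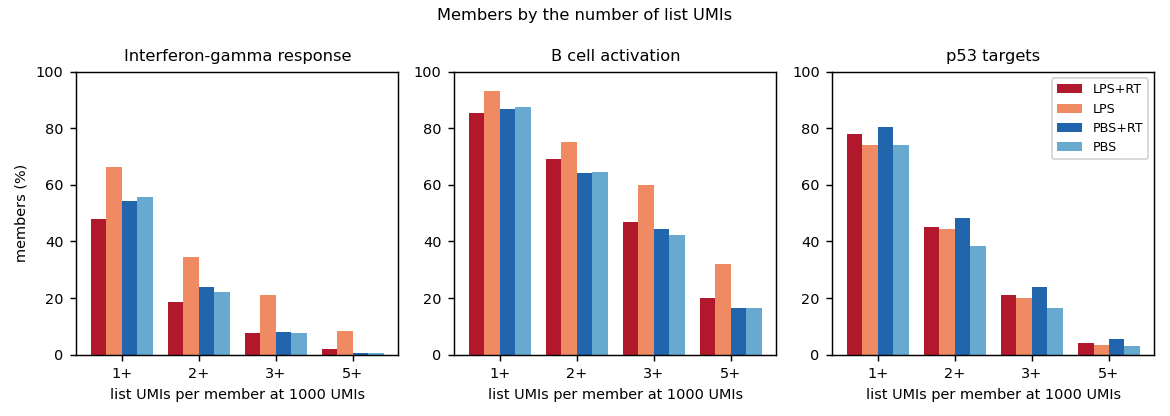
Percent of B cells, each thinned to 1000 UMIs, with at least 1, 2, 3 or 5 UMIs of the interferon-gamma, activation and p53 lists, by library. The LPS library lies above the other 3 for interferon-gamma genes at 3 or more UMIs (20.9% against 7.45% to 8.09%) and for activation genes (60.1% against 42.2% to 47.0%), while p53 genes lie between 16.3% and 23.9% in all 4.

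Activation genes, which B cells turn on after receptor or Toll-like receptor stimulation, were also higher in LPS than in PBS. Of 18 tested of 22 listed, 13 (72.2%) were at least 1.5-fold higher and 0 as much lower, with a median log2 ratio of 0.74. Over all genes 15.3% were as much higher and 6.41% lower. The whole list summed to 2612 CPM in LPS+RT, 3755 in LPS, 2573 in PBS+RT and 2569 in PBS, which placed LPS alone above the others. Irf4 (ENSMUSG00000021356, chr13:30749226-30766976, plus strand), a dose-sensitive factor of activation and plasma cell fate, measured 124 CPM in LPS+RT, 272 in LPS, 98.1 in PBS+RT and 127 in PBS, an LPS to PBS ratio of 2.15 (1.87 to 2.46). Cd86 (ENSMUSG00000022901, chr16:36603869-36666081, minus strand), a costimulatory ligand for T cells, measured 517 CPM in LPS+RT, 804 in LPS, 718 in PBS+RT and 488 in PBS, a ratio of 1.65 (1.53 to 1.77). PBS+RT was the second highest library for Cd86, unlike for Irf4.

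Cd83, a surface protein that stabilises MHC class II, measured 422 CPM in LPS+RT, 675 in LPS, 387 in PBS+RT and 434 in PBS, a ratio of 1.56 (1.44 to 1.68). Cd69, an early activation marker that holds lymphocytes in tissue, measured 283 CPM in LPS+RT, 348 in LPS, 211 in PBS+RT and 223 in PBS, a ratio of 1.56 (1.4 to 1.74). Traf1, a signalling adaptor of TNF receptors, measured 29.7 CPM in LPS+RT, 64.9 in LPS, 22.7 in PBS+RT and 29.3 in PBS, a ratio of 2.22 (1.67 to 2.96), and Icam1, an adhesion molecule, measured 37.9 CPM in LPS+RT, 72.8 in LPS, 22.3 in PBS+RT and 34.4 in PBS, a ratio of 2.11 (1.62 to 2.77). The LPS library was again the highest for all 4. Egr3, a factor induced by receptor signalling, measured 20.5 CPM in LPS+RT, 54.1 in LPS, 23.9 in PBS+RT and 25.3 in PBS, a ratio of 2.14 (1.57 to 2.94), and Nfkbid, an atypical NF-kB regulator, measured 133 CPM in LPS+RT, 222 in LPS, 139 in PBS+RT and 122 in PBS, a ratio of 1.82 (1.57 to 2.1). Myc, the growth factor-induced driver of proliferation, measured 49.2 CPM in LPS+RT, 95.9 in LPS, 31.1 in PBS+RT and 56.7 in PBS, a ratio of 1.69 (1.36 to 2.1). Ccr7, the receptor that guides B cells to lymph nodes, went the other way at 399.9 CPM in LPS+RT, 331 in LPS, 393 in PBS+RT and 471 in PBS, a ratio of 0.703 (0.64 to 0.773).

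A pair of chemokine genes on the activation list followed the neutrophils and a few cells. Ccl3 measured 52.8 CPM in LPS+RT, 106 in LPS, 4.17 in PBS+RT and 5.86 in PBS in the B cells, with 5 cells holding 84.5% of its UMIs in LPS+RT and 54.4% in LPS, and 1523 CPM in LPS+RT, 3984 in LPS, 131 in PBS+RT and 93.7 in PBS in neutrophil-marked barcodes. Ccl4 measured 20.5 CPM in LPS+RT, 77.7 in LPS, 5.68 in PBS+RT and 4.03 in PBS, with 5 cells holding 65.2% of its UMIs in LPS. Both were named after their values had been seen, and the part of neutrophil RNA in them was not tested.

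**Figure D3:**
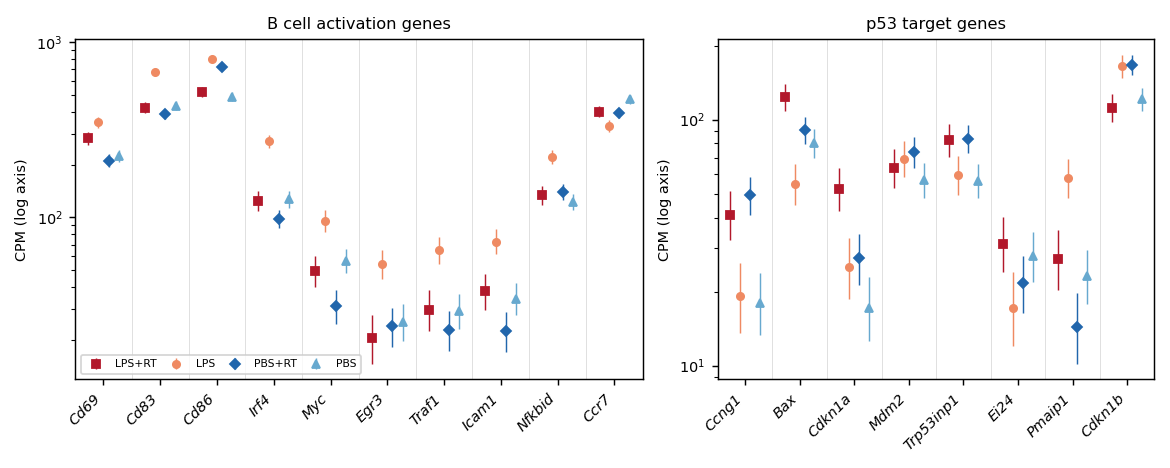
Levels in B cells of 10 activation genes and 8 p53 target genes in the 4 libraries, in CPM on a log axis, with exact 95% Poisson intervals of the counts. Irf4 stands at 272 CPM in LPS and between 98.1 and 127 CPM elsewhere, and Ccng1 stands at 41.0 and 49.2 CPM in the 2 irradiated libraries against 17.9 and 19.2 CPM in the unirradiated ones.

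Genes of the NF-kB system, the transcription factors that Toll-like receptors activate, had a median log2 ratio of 0.50 between LPS and PBS. Of these, 5 of 14 (35.7%) were at least 1.5-fold higher and 0 lower, beside 15.3% of all genes higher and 6.41% lower. Rel, the subunit most used by stimulated B cells, measured 1051 CPM in LPS+RT, 1236 in LPS, 1048 in PBS+RT and 762 in PBS, a ratio of 1.62 (1.53 to 1.72). Relb, of the non-canonical branch, measured 143 CPM in LPS+RT, 155 in LPS, 124 in PBS+RT and 88.6 in PBS, a ratio of 1.75 (1.47 to 2.08), and Nfkb1 measured 434 CPM in LPS+RT, 536 in LPS, 479.9 in PBS+RT and 327 in PBS, a ratio of 1.64 (1.5 to 1.79). For these 3 genes PBS was the low library and the other 3 stood above it. Under other processing the lowest log2 ratio of LPS to PBS was 0.39 for Rel, 0.63 for Relb and 0.10 for Nfkb1. That of PBS+RT to PBS was 0.12 for Rel, 0.13 for Relb and 0.014 for Nfkb1. Bcl3, a nuclear cofactor of NF-kB, measured 43.6 CPM in LPS+RT, 84.6 in LPS, 51.9 in PBS+RT and 45.8 in PBS, a ratio of 1.85 (1.46 to 2.35), and was high in LPS alone. Among sensing genes, 2 of 8 tested (25%) were higher and 0 lower. Cd180, a Toll-like protein of B cells that modulates endotoxin responses, measured 74.3 CPM in LPS+RT, 153 in LPS, 105 in PBS+RT and 103 in PBS, a ratio of 1.48 (1.26 to 1.75). Cd14, the endotoxin co-receptor of myeloid cells, measured 34.9 CPM in LPS+RT, 88 in LPS, 4.92 in PBS+RT and 10.2 in PBS, but 5 cells held 69.3% of its UMIs in LPS, and neutrophil-marked barcodes had it at 1330.1 CPM in LPS+RT, 1574 in LPS, 485 in PBS+RT and 457 in PBS.

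Antigen presentation genes did not follow the interferon-gamma list. Of 12 MHC class II genes, 0 passed 1.5-fold upward in LPS and 1 passed it downward, with a median log2 ratio of -0.31. Cd74 measured 8766 CPM in LPS+RT, 7162 in LPS, 6668 in PBS+RT and 9518 in PBS, a ratio of 0.753 (0.737 to 0.768), and H2-Ab1, a chain of the presenting molecule I-A, measured 2512 CPM in LPS+RT, 2098 in LPS, 2055 in PBS+RT and 2689 in PBS, a ratio of 0.78 (0.751 to 0.81). The 1 lower gene was H2-DMa, which loads peptides onto MHC class II, at 306 CPM in LPS+RT, 233 in LPS, 256 in PBS+RT and 367 in PBS, a ratio of 0.635 (0.568 to 0.709). LPS+RT and PBS were the higher libraries for these 3 genes. MHC class I and immunoproteasome genes had a median of -0.07, with 2 of 18 higher, Nlrc5 and H2-Q4 at a ratio of 1.52 (1.23 to 1.89), and 1 lower. The 1 lower was H2-T23, a nonclassical class I gene. Relative to genes of like length, the MHC class II median was -0.066.

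Of 7 immunoglobulin constant region genes tested of 12 listed, 5 were at least 1.5-fold lower in LPS than in PBS and 0 as much higher. As much lower were 6.41% of all genes, and 18.7% of the shortest genes tested (204 to 13192 bp). The median log2 ratio of the list was -0.72, which was -0.89 under size factors and -0.42 relative to genes of like length. Ighm, the IgM heavy chain, measured 2119 CPM in LPS+RT, 1759 in LPS, 2027 in PBS+RT and 2523 in PBS, and its ratio of 0.697 (0.669 to 0.726) fell short of the threshold. Ighd had a ratio of 0.989 (0.915 to 1.07). Igkc, the kappa constant region, measured 4808 CPM in LPS+RT, 4042 in LPS, 3964 in PBS+RT and 6653 in PBS, a ratio of 0.608 (0.592 to 0.624), and Iglc1, a lambda constant region, 443 CPM in LPS+RT, 334 in LPS, 294 in PBS+RT and 600.3 in PBS, a ratio of 0.557 (0.508 to 0.609). Igha, the IgA heavy chain, measured 27.2 CPM in LPS+RT, 2.46 in LPS, 48.1 in PBS+RT and 13.5 in PBS, with 5 cells holding 88.7% of its UMIs in LPS+RT and 88.2% in PBS+RT. For Ighm and Igkc the order was PBS highest and LPS+RT next.

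Genes of naive follicular cells had a median log2 ratio of 0.13 between LPS and PBS, -0.042 under size factors, with 2 of 12 (16.7%) higher and 0 lower. Over all genes 15.3% were higher and 6.41% lower. Cr2 measured 114 CPM in LPS+RT, 133 in LPS, 81.1 in PBS+RT and 77.6 in PBS, a ratio of 1.71 (1.42 to 2.06), and Satb1, a chromatin organiser of lymphocytes, measured 1259 CPM in LPS+RT, 1508 in LPS, 1350.2 in PBS+RT and 884 in PBS, a ratio of 1.7 (1.62 to 1.8). Among homing genes, 2 of 18 tested (11.1%) were higher and 2 (11.1%) lower. Ccr6, a receptor for the mucosal chemokine CCL20, measured 55.4 CPM in LPS+RT, 87 in LPS, 57.2 in PBS+RT and 49.1 in PBS, a ratio of 1.77 (1.41 to 2.24). S1pr4, a lymphocyte receptor for sphingosine 1-phosphate, measured 50.8 CPM in LPS+RT, 33.4 in LPS, 50.4 in PBS+RT and 63 in PBS, a ratio of 0.531 (0.395 to 0.707). Cxcr4, the bone marrow retention receptor, measured 233 CPM in LPS+RT, 143 in LPS, 168 in PBS+RT and 213 in PBS, and its ratio of 0.673 (0.582 to 0.776) fell short of the threshold.

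By size alone, the top 8 and bottom 8 genes named by ratio included several carried by few cells. Among the 8 highest in LPS against PBS, 5 cells held between 96.8% and 100% of the UMIs of Fabp5, Rnf217 and Adamts9, and others among them were Serpina3g, Nlrc5 and Irf1. Among the 8 lowest, 5 cells held 78.0% to 95% of the UMIs of Gm13889, Nebl and Nox4. The remaining 5 lowest were found in more cells. Myadm, a membrane protein, measured 33.3 CPM in LPS+RT, 16.2 in LPS, 51.9 in PBS+RT and 72.5 in PBS, a ratio of 0.224 (0.15 to 0.325), and Gm11290 measured 56.9 CPM in LPS+RT, 15.2 in LPS, 39.8 in PBS+RT and 64.4 in PBS, a ratio of 0.237 (0.156 to 0.348). Arrdc3, an arrestin-like regulator of receptor traffic, had a ratio of 0.295 (0.202 to 0.421), Gm2000 of 0.405 (0.327 to 0.498) and Tagln2, an actin-binding protein, of 0.446 (0.38 to 0.522).

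In the irradiated pair, LPS+RT against PBS+RT, the interferon-gamma genes were not apart. Of the 12 tested, 0 were at least 1.5-fold higher and 1 as much lower, and the median log2 ratio was 0.05. Over all genes 3.36% were higher and 8.73% lower, with a median of -0.14. The summed list was 1.02 times (0.953 to 1.09) as high in LPS+RT as in PBS+RT. Irf1 had a ratio of 1.24 (0.978 to 1.58), against 3.13 in the unirradiated pair. The 1 lower gene was Gbp7, at 0.529 (0.319 to 0.852), and Gvin1 was lower as well, at 0.363 (0.19 to 0.65). Cd274 and Nlrc5 stood at 1.19 (0.974 to 1.45) and 0.889 (0.599 to 1.31).

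The summed activation list was 1.01 times (0.979 to 1.05) as high in LPS+RT as in PBS+RT, with 4 of 18 genes at least 1.5-fold higher, 0 lower and a median log2 ratio of 0.33. The 4 were Myc, Icam1, Ccl3 and Ccl4. Myc had a ratio of 1.58 (1.17 to 2.15), which turned to a log2 ratio of -0.099 with the barcodes that carry genes of other types kept. Icam1 had a ratio of 1.7 (1.19 to 2.43) and Cd69 of 1.34 (1.19 to 1.51), while Irf4 had 1.26 (1.06 to 1.51) and Cd86 0.72 (0.666 to 0.778). Ccl3 and Ccl4 had ratios of 12.7 (6.8 to 26.2) and 3.61 (1.95 to 7.03), in the few cells described above. Immediate early and dissociation genes, which respond within minutes to stress and to tissue digestion, had 7 of 22 higher and 0 lower, with a median of 0.42. In the unirradiated pair they had 5 higher, 1 lower and a median of 0.21. Hspa1a, an inducible heat shock chaperone, measured 160.5 CPM in LPS+RT, 218 in LPS, 63.3 in PBS+RT and 80.9 in PBS, a ratio of 2.54 (2.1 to 3.08) for LPS+RT against PBS+RT and of 2.69 (2.29 to 3.18) for LPS against PBS. Jun, a subunit of the factor AP-1, measured 382 CPM in LPS+RT, 432 in LPS, 208 in PBS+RT and 173 in PBS, a ratio of 1.84 (1.65 to 2.06) for LPS+RT against PBS+RT and of 2.49 (2.23 to 2.79) for LPS against PBS. Both LPS libraries were thus above both PBS libraries for these genes.

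Antigen presentation genes had medians of 0.19 for MHC class II and 0.22 for MHC class I in the irradiated pair, with no gene past 1.5-fold in either list. Cd74 had a ratio of 1.31 (1.29 to 1.34) and H2-K1, a classical class I heavy chain, of 1.33 (1.24 to 1.42). NF-kB genes had 1 of 14 higher, 0 lower and a median of 0.05, with Rel at 1.00 (0.946 to 1.06). Sensing genes had 1 of 8 higher, which was Cd14, and 0 lower, with Cd180 at 0.706 (0.574 to 0.866). Of 7 type I interferon genes, 0 were higher and 1 lower. Of 12 p53 targets, 2 were higher and 0 lower, with a median of 0.06, and in LPS against PBS 1 was higher and 1 lower, with a median of 0.12 that was -0.049 under size factors. Homing genes had 1 of 18 higher and 2 lower. Itga4, the integrin chain that binds VCAM1, was lower at 0.602 (0.557 to 0.649). Naive follicular genes had 0 of 12 higher and 1 lower, with a median of -0.01 that was 0.12 under size factors.

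Among the genes named by size in the irradiated pair, 5 cells held 74.2% to 96.2% of the UMIs of Cxcl3, Mt1, Wfdc17, Mgp and Eln on the higher side and 53.5% to 99.0% of those of Rnf217, Lmo7 and Agbl1 on the lower side. Hspa1a was named on the higher side with 2 more genes. Dusp1, a phosphatase that ends MAP kinase signalling, measured 314 CPM in LPS+RT, 164 in LPS, 139 in PBS+RT and 202 in PBS, a ratio of 2.25 (1.97 to 2.57). Fth1, the ferritin heavy chain that stores iron, measured 3615 CPM in LPS+RT, 4060.0 in LPS, 1568 in PBS+RT and 2468 in PBS, a ratio of 2.31 (2.22 to 2.4), with 5 cells holding 35.5% of its UMIs in LPS+RT. On the lower side, Slc15a2, a transporter of small peptides, measured 52.8 CPM in LPS+RT, 95.4 in LPS, 146 in PBS+RT and 28.2 in PBS, a ratio of 0.362 (0.288 to 0.451), and Insyn2b measured 43.6 CPM in LPS+RT, 109 in LPS, 133 in PBS+RT and 51.6 in PBS, a ratio of 0.328 (0.256 to 0.417). Clec2g, a C-type lectin-related gene, had a ratio of 0.351 (0.251 to 0.483), Gm26827 of 0.359 (0.251 to 0.503) and Sox5, a transcription factor, of 0.397 (0.331 to 0.473). PBS+RT was the highest library for these 5 genes.

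PBS+RT against PBS shows irradiation of the uninflamed lung. Of 12 p53 targets tested of 31 listed, 2 were at least 1.5-fold higher and 1 as much lower, with a median log2 ratio of 0.31, which was 0.11 under size factors and 0.40 relative to genes of like length. Over all genes 18.3% were as much higher and 6.76% lower, with a median of 0.20. The count is close to that background. Ccng1 (ENSMUSG00000020326, chr11:40748552-40755311, minus strand), cyclin G1, a direct p53 target, measured 41 CPM in LPS+RT, 19.2 in LPS, 49.2 in PBS+RT and 17.9 in PBS. Its PBS+RT to PBS ratio was 2.75 (1.96 to 3.9), with UMIs in 64 of the LPS+RT, 37 of the LPS, 85 of the PBS+RT and 47 of the PBS B cells. As a log2 ratio this was 1.46, and it ran from 0.40, which is under 1.5-fold, to 1.79 under other processing. Both irradiated libraries lay above both unirradiated ones.

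The other p53 genes were less clear. Cdkn1a (ENSMUSG00000023067, chr17:29090976-29100727, plus strand), the p21 inhibitor of the cell cycle, measured 52.3 CPM in LPS+RT, 25.1 in LPS, 27.3 in PBS+RT and 17.2 in PBS, a ratio of 1.59 (1.08 to 2.34), which turned to a log2 ratio of -0.95 at 1000 UMIs per cell. Bax (ENSMUSG00000003873, chr7:45461697-45466898, minus strand), which opens the mitochondrial membrane in cell death, measured 123 CPM in LPS+RT, 54.6 in LPS, 90.5 in PBS+RT and 80.2 in PBS, a ratio of 1.13 (0.936 to 1.36). Mdm2, the ubiquitin ligase that removes p53, measured 63.6 CPM in LPS+RT, 69.3 in LPS, 73.9 in PBS+RT and 56.7 in PBS, a ratio of 1.3 (1.05 to 1.62). Trp53inp1, a p53-induced stress protein, measured 82.5 CPM in LPS+RT, 59.5 in LPS, 83.7 in PBS+RT and 56.4 in PBS, a ratio of 1.48 (1.2 to 1.84), just under the threshold. Phlda3, an inhibitor of AKT, was under the filter with 20 UMIs in LPS+RT, 5 in LPS, 25 in PBS+RT and 13 in PBS. Its ratio of 1.99 (0.98 to 4.24) did not differ from 1 beyond counting error and turned to a log2 ratio of -0.018 with the barcodes that carry genes of other types kept. All 30 p53 genes found in the table summed to 1776 CPM in LPS+RT, 1530 in LPS, 1755 in PBS+RT and 1439 in PBS, 1.22-fold higher (1.17 to 1.27) in PBS+RT than in PBS.

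Interferon-gamma genes had 1 of 12 higher, 0 lower and a median of 0.13 between PBS+RT and PBS, -0.068 under size factors, and the 1 was Gbp7 at 1.95 (1.27 to 3.05). Irf1 had a ratio of 0.865 (0.691 to 1.08). Activation genes had 0 of 18 higher, 2 lower and a median of -0.12, with Icam1 at 0.649 (0.461 to 0.909). NF-kB genes had none of 14 past 1.5-fold in either direction, and Rel stood at 1.38 (1.3 to 1.46). Type I interferon genes had 1 of 7 higher, Ifi213 at 2.53 (1.83 to 3.54), and 1 lower. Sensing genes had 0 of 8 higher and 1 lower.

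MHC class I and immunoproteasome genes had 0 of 18 higher and 5 (27.8%) lower in PBS+RT against PBS. As much lower were 6.76% of all genes, and 21.3% of the shortest genes tested (204 to 13192 bp). The median log2 ratio of the list was -0.51, which was -0.71 under size factors and -0.21 relative to genes of like length. Psmb8 and Psmb9, catalytic subunits of the immunoproteasome, measured 161 CPM in LPS+RT, 203 in LPS, 142 in PBS+RT and 225 in PBS for Psmb8 and 66.6 CPM in LPS+RT, 107 in LPS, 67.8 in PBS+RT and 112 in PBS for Psmb9. Their PBS+RT to PBS ratios were 0.63 (0.553 to 0.718) and 0.605 (0.5005 to 0.73). MHC class II genes had none of 12 past 1.5-fold and a median of -0.33, with Cd74 at 0.701 (0.687 to 0.714). Of 7 immunoglobulin constant region genes, 4 were lower and 1 higher. Their median was -0.75, which was -0.95 under size factors and -0.41 relative to genes of like length. Igkc had a ratio of 0.596 (0.582 to 0.61) and Iglc1 of 0.49 (0.449 to 0.534), while Ighm had 0.803 (0.775 to 0.833) and Ighd 1.14 (1.06 to 1.22). The 1 higher was Igha at 3.55 (2.45 to 5.27), in the few cells described above.

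Homing genes had 2 of 18 (11.1%) higher and 4 (22.2%) lower in PBS+RT against PBS, beside 18.3% of all genes higher and 6.76% lower. Their median was -0.29, and it ran from -0.49 under size factors to -0.075 under other processing. Itga4 measured 498 CPM in LPS+RT, 595 in LPS, 828 in PBS+RT and 414 in PBS, a ratio of 2.00 (1.86 to 2.15). Klf2, the factor that keeps lymphocytes quiescent and circulating, measured 594 CPM in LPS+RT, 571 in LPS, 428 in PBS+RT and 685 in PBS, a ratio of 0.624 (0.579 to 0.672). S1pr1, a Klf2 target that lets lymphocytes leave tissue, measured 166 CPM in LPS+RT, 201 in LPS, 136 in PBS+RT and 202 in PBS, and its ratio of 0.672 (0.587 to 0.769) fell just short of the threshold. PBS+RT was thus the highest library for Itga4 and the lowest for Klf2 and S1pr1. Naive follicular genes, which share Klf2 and S1pr1 with this list, had 2 of 12 higher and 1 lower, with a median of 0.04.

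Among the genes named by size in PBS+RT against PBS, 5 cells held 79.8% to 99.0% of the UMIs of Rnf217, C7, Slit2, Adarb1 and Cp on the higher side and 93.8% of those of Fyb on the lower side. The 3 others on the higher side were spread over more cells. Dglucy, a mitochondrial D-glutamate cyclase, measured 25.1 CPM in LPS+RT, 8.85 in LPS, 51.1 in PBS+RT and 5.12 in PBS, a ratio of 9.98 (5.74 to 18.7), with UMIs in 37 of the LPS+RT, 12 of the LPS, 70 of the PBS+RT and 13 of the PBS B cells. Slc15a2 had a ratio of 5.17 (4.04 to 6.7). Pvt1, a long noncoding RNA next to Myc, measured 129.7 CPM in LPS+RT, 114 in LPS, 177 in PBS+RT and 57.5 in PBS, a ratio of 3.08 (2.57 to 3.72). Lower genes were Rgcc, a cell cycle regulator, at 43.1 CPM in LPS+RT, 39.3 in LPS, 13.3 in PBS+RT and 45.8 in PBS, a ratio of 0.29 (0.193 to 0.424), and Polr2g, a subunit of RNA polymerase II, at a ratio of 0.428 (0.313 to 0.579). Il4i1, an amino acid oxidase induced by interleukin 4 in B cells, had 0.416 (0.282 to 0.603), Arrdc3 0.437 (0.327 to 0.577), Rex1bd 0.429 (0.295 to 0.616), Cuta 0.462 (0.341 to 0.62) and Mien1 0.481 (0.367 to 0.625).

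LPS+RT against LPS shows irradiation of the inflamed lung, and here the interferon-gamma genes were lower. Of the 12 tested, 9 were at least 1.5-fold lower and 0 higher, with a median log2 ratio of -1.25, beside 3.2% of all genes higher, 7.83% lower and a median of -0.11. As above, the filter partly fixed this count and median. Of all 25 listed genes, taken without the filter, 22 had a ratio below 1 and 2 above 1. The summed list in LPS+RT was 0.466 times (0.439 to 0.494) that in LPS, and its 13 members under the filter 0.278 times. Irf1 had a ratio of 0.344 (0.281 to 0.419) and Nlrc5 of 0.268 (0.189 to 0.372). Serpina3g had 0.265 (0.174 to 0.393), Gbp2 0.149 (0.0883 to 0.239), Gbp7 0.261 (0.161 to 0.407) and Gvin1 0.17 (0.0915 to 0.295). Cd274 had 0.512 (0.429 to 0.61) and Irf8 0.564 (0.481 to 0.66). This comparison shares the LPS library with that of LPS against PBS, so the values of LPS enter both, and the levels in each library given above are the data.

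T cells and NK cells of the same libraries had medians of the list of -1.15 over 9 genes and -0.89 over 10 between LPS+RT and LPS. For the unirradiated pair, LPS against PBS, their medians were 1.52 and 0.87. Irf1 in T cells measured 144 CPM in LPS+RT, 306 in LPS, 119 in PBS+RT and 105 in PBS, and in NK cells 161 CPM in LPS+RT, 294 in LPS, 218 in PBS+RT and 129.9 in PBS. The neutrophil markers were also lower in LPS+RT than in LPS in the B cells, with the sums given above. The LPS library held 2336 neutrophil-marked barcodes and the LPS+RT library 556.

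Activation genes were lower in LPS+RT than in LPS as well, with 0 of 18 higher, 12 lower and a median log2 ratio of -0.81. Irf4 had a ratio of 0.456 (0.391 to 0.532), Cd86 of 0.643 (0.594 to 0.696) and Cd83 of 0.626 (0.573 to 0.683). Traf1 had 0.458 (0.331 to 0.629), Egr3 0.379 (0.257 to 0.549), Myc 0.513 (0.398 to 0.659) and Nfkbid 0.600 (0.513 to 0.700), and Cd69 had 0.813 (0.726 to 0.91) and did not reach the threshold. Of 14 NF-kB genes, 2 were lower and 0 higher, with Bcl3 at 0.515 (0.393 to 0.672) and Rel at 0.85 (0.802 to 0.901). Of 8 sensing genes, 2 were lower and 0 higher, with Cd180 at 0.486 (0.396 to 0.594). Of 7 type I interferon genes, 2 were lower and 0 higher, with Stat2 at 0.455 (0.317 to 0.644). MHC class II genes had none of 12 past 1.5-fold and a median of 0.21, and MHC class I genes 5 of 18 lower and 0 higher, with Psmb9 at 0.625 (0.499 to 0.78) and H2-Q4 at 0.605 (0.473 to 0.77).

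**Figure D4:**
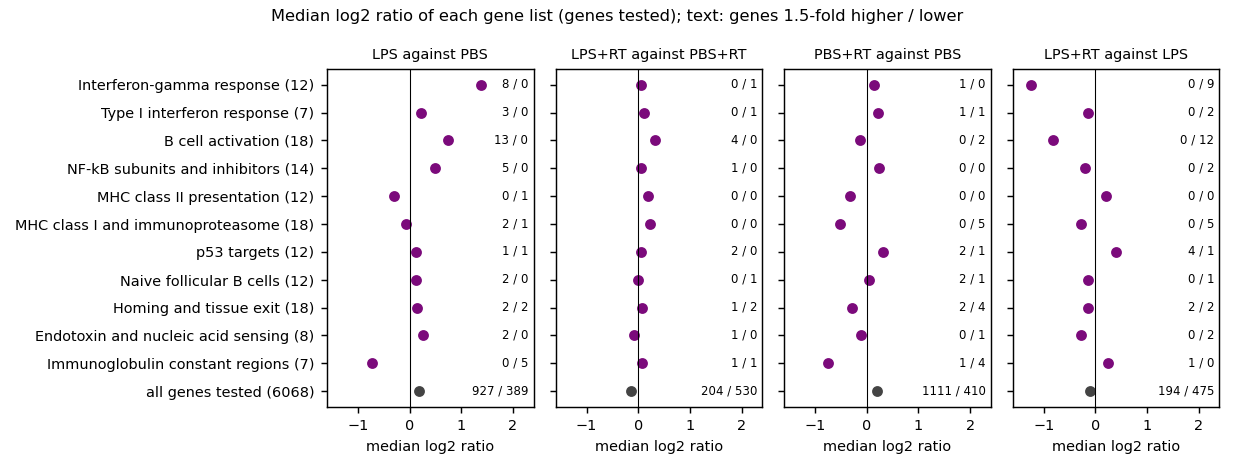
Median log2 ratio of 11 gene lists and of all 6068 genes tested in the 4 comparisons of B cells, with the number of genes at least 1.5-fold higher and lower beside each point. The interferon-gamma list stands at 1.39 for LPS against PBS and at -1.25 for LPS+RT against LPS, and near the median of all genes in the other 2 comparisons.

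The p53 targets had 4 of 12 higher in LPS+RT than in LPS, 1 lower and a median log2 ratio of 0.40, against 3.2% of all genes higher. Ccng1 had a ratio of 2.14 (1.44 to 3.22), Bax of 2.25 (1.79 to 2.85), Cdkn1a of 2.09 (1.48 to 2.98) and Ei24, a p53-induced gene of the endoplasmic reticulum, of 1.82 (1.18 to 2.84). Cdkn1a UMIs sat in few cells, with 5 holding 47.1% in LPS+RT and 60.8% in LPS. The 1 lower gene was Pmaip1, the death activator Noxa, at 27.2 CPM in LPS+RT, 58 in LPS, 14.4 in PBS+RT and 23.1 in PBS, a ratio of 0.468 (0.332 to 0.653). Mdm2 had 0.917 (0.715 to 1.18) and Phlda3 4.17 (1.52 to 14.2). The summed list was 1.16 times (1.11 to 1.22) as high in LPS+RT as in LPS. In T cells Ccng1 measured 62.9 CPM in LPS+RT, 34.2 in LPS, 60.6 in PBS+RT and 31 in PBS, and in NK cells 49.8 CPM in LPS+RT, 41.7 in LPS, 61.7 in PBS+RT and 35.4 in PBS. By level alone, both irradiated libraries lay above both unirradiated ones in each case. No interval is given for these levels. The NK levels in LPS+RT and LPS were close and came from 197 and 266 cells. The ratio of Ccng1 is the 1 p53 result that passed 1.5-fold in both irradiation comparisons with an interval that left out 1 and UMIs spread over many cells, and it was singled out after its values were seen. Under other processing its lowest log2 ratio was 0.40 for PBS+RT against PBS, under 1.5-fold, and 0.88 for LPS+RT against LPS.

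Naive follicular genes had 0 of 12 higher and 1 lower in LPS+RT against LPS, with a median of -0.15, and homing genes had 2 of 18 higher and 2 lower. Cxcr4 had a ratio of 1.63 (1.4 to 1.9) and S1pr4 of 1.52 (1.1 to 2.1), while Cxcr5, the receptor that draws B cells into follicles, had 0.66 (0.57 to 0.763) and Ccr6 0.636 (0.496 to 0.813). All 8 genes with the highest ratio by size (Eln, Mt1, Pcolce2, Mgp, Npnt, Gsn, C7 and Cxcl3) had 68.2% to 100% of their UMIs in 5 cells of LPS+RT. So did 4 of the 8 lowest (Mpp7, Fabp5, Tmtc2 and Adamts9) in LPS, at 68.4% to 100%, and others among the 8 were Gvin1, Nlrc5 and Serpina3g. Eln, Mgp, Pcolce2 and Gsn are genes that fibroblasts express strongly, and fibroblast markers summed in the B cells to 430 CPM in LPS+RT, 166 in LPS, 203 in PBS+RT and 225 in PBS. Their part in these genes was not tested.

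Ratios followed gene length across the whole table, which bears on every count above. Between LPS and PBS the median log2 ratio was -0.30 in the shortest of 4 equal groups of genes by length (204 to 13192 bp) and 0.07, 0.31 and 0.44 in the longer groups, the last from 70045 to 2960900 bp. Between PBS+RT and PBS it was -0.34, 0.08, 0.34 and 0.54. Between LPS+RT and PBS+RT it ran the other way, from 0.15 over -0.09 and -0.22 to -0.31, and between LPS+RT and LPS from 0.11 over -0.07 and -0.18 to -0.22. Ribosomal protein genes took 18.7% of B cell UMIs in LPS+RT, 15.4% in LPS, 15.7% in PBS+RT and 21.8% in PBS. Their part in the other results was not tested.

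**Figure D5:**
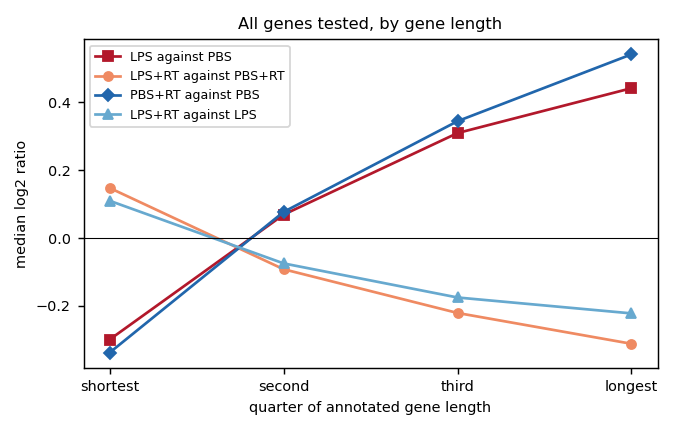
Median log2 ratio of the genes tested, in 4 equal groups by gene length (genomic span in bp), for the 4 comparisons of B cells. The line for PBS+RT against PBS climbs from -0.34 to 0.54 and that for LPS+RT against PBS+RT descends from 0.15 to -0.31.

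The counts over all genes depended on the scaling. In CPM, 927 genes passed 1.5-fold upward and 389 downward in LPS against PBS. With median-of-ratios size factors, which moved the median of all genes by -0.17, they were 451 and 804. For PBS+RT against PBS they were 1111 higher and 410 lower in CPM and 438 and 895 with size factors, a shift of -0.20. For LPS+RT against PBS+RT they were 204 and 530 in CPM and 371 and 260 with size factors, a shift of 0.13, and for LPS+RT against LPS 194 and 475 and then 309 and 297, a shift of 0.11. The interferon-gamma median for LPS against PBS was 1.22 with size factors and 1.24 relative to genes of like length, and for LPS+RT against LPS -1.15 and -1.14.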

How the data were processed

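Droplet single-cell RNA sequencing of mouse lung was analysed in 4 libraries, 1 per group. The authors deposited raw UMI counts for each gene and barcode. The file headers give Cell Ranger 7.0.1 as their source. The submitters' processing notes list mm10 as the build and Cell Ranger 7, Seurat 4.3.0 and R 4.2.2 as tools. Whether intronic reads were counted is not given in the sources used here. Barcode names were not used, so barcodes shared between libraries were not counted. No doublet caller was run: barcodes were left out only through genes of other cell types.

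Barcodes were kept with 500 or more UMIs, 200 or more genes and no more than 10% of UMIs from mitochondrial genes, and B cells were taken by the rule given above. The members and the gene lists were chosen with earlier results of these data known. Counts were summed over the B cells of a library and divided by their total (CPM, times 1000000). Genes with a mean of at least 20 CPM over the libraries were compared, and a difference of 1.5-fold or more was counted. Ratios have exact conditional binomial intervals, shares Clopper-Pearson intervals and single levels Poisson intervals, all at 95%. Cells of 1 library are not replicates, so no test was made. Lists are described by their counts and median log2 ratio. A few genes that the rules below would name are counted in these summaries and not reported here by name.

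Genes were named by a rule: in each comparison the 8 highest and the 8 lowest log2 ratios after adding 10 CPM to both values, among genes with at least 30 UMIs in the higher library, an interval without 1, and a level of at least 1/5 of that outside the B cells. Mitochondrial, ribosomal protein, hemoglobin and immunoglobulin genes and markers of other cell types were left out. Up to 4 genes per list and a fixed set of B cell and p53 genes were added, and further list members were named with their values seen. T cells had a UMI of Cd3e and more than 1 UMI over Cd3e, Cd3d, Cd3g, Trac, Trbc1 and Trbc2 together. NK cells had a UMI of Ncr1 and more than 1 UMI over Ncr1, Klrb1c and Klre1 together. Both had no UMI of Cd79a, Ms4a1, C1qa, Marco, Csf3r, Siglech and Cdh5. T cells also had none of Ncr1, and NK cells none of Cd3e. Cells were thinned to 1000 UMIs only where the text says so. Other counts of cells with UMIs of a gene, of genes of other cell types or of antibody segments were not thinned, and depth differed between libraries. Gene positions are from GENCODE M21 on mm10, and promoter windows (250 bases before to 50 after the start) from RefSeq on GRCm38.p6. Computation used matplotlib 3.10.9, pandas 2.3.3, scipy 1.17.1 and numpy 2.4.6 under Python 3.11.15, and the interval step was checked on simulated counts. Alternatives varied the marker sum, the depth and doublet filters, the scaling, the low-count filter and the weighting of cells.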

Additional observations from a re-analysis of the deposited data

Results flagged for a closer look

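For 10 of the genes named above, the B cells of irradiated and unirradiated lungs differed by 1.5-fold or more in opposite directions after LPS and after PBS. In each case the difference was not tested, since every group is 1 library, and genes with most UMIs in 5 cells were left out. The value given is the log2 ratio of LPS+RT to LPS minus that of PBS+RT to PBS. It was -3.66 for Gvin1 (-2.56 after LPS and 1.10 after PBS), -3.22 for Slc15a2 (-0.85 after LPS and 2.37 after PBS) and -2.90 for Gbp7 (-1.94 after LPS and 0.96 after PBS). It was -2.68 for Insyn2b, -2.48 for Clec2g, -2.12 for Gm26827 and -2.00 for Sox5. In these 7 genes irradiation went with a lower level in inflamed lungs and a higher one in uninflamed lungs. The other 3 genes ran the opposite way, with 2.60 for Gm11290 (1.90 after LPS and -0.70 after PBS), 1.81 for Polr2g (0.59 after LPS and -1.23 after PBS) and 1.45 for Tagln2 (0.65 after LPS and -0.80 after PBS). After LPS, the log2 ratio of Sox5 turned to 0.24 without the 5% of cells with the most UMIs and that of Polr2g to -0.80 at 1000 UMIs per cell. Irradiation also went opposite ways by gene length over all genes tested. The median log2 ratio of the longest genes was -0.22 after LPS and 0.54 after PBS. That of the shortest genes was 0.11 after LPS and -0.34 after PBS. The share of all genes tested that ran in opposite directions was not counted. The part of gene length in these 10 genes was not tested.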

How the results depend on the processing

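No paired analysis was possible because each group is 1 library. With 1 library per group, no alternative can speak to the spread between mice. Of 104 recounts of genes, 78 stayed within 1.5 times the reported count. Of 585 alternative list medians, 547 lay between the median lower and median upper interval limits of their genes. A change of sign was counted only for a reported median of at least 1.5-fold, and none of those changed sign. Smaller medians did change sign. In LPS against PBS, naive follicular genes went from 0.13 to -0.042 at the lowest and p53 targets from 0.12 to -0.16. Of 4412 alternative ratios of named genes, 3685 stayed within the reported interval and 694 moved out of it. A further 33, of ratios reported at 1.5-fold or more, turned round. 3 alternatives were chosen after seeing the data: keeping barcodes with genes of other cell types, leaving out members with 5 UMIs of such companion genes, and ratios relative to genes of like length. The share of B cells in LPS against PBS was 0.44 among Ptprc barcodes, 1.11 without neutrophils and 0.69 at 1000 UMIs per cell. The share in LPS+RT against PBS+RT was 0.60 among Ptprc barcodes and 0.85 at 1000 UMIs, and that in LPS+RT against LPS was 1.28, 0.68 without neutrophils and 1.08. With no filter on low counts, genes higher and lower numbered 4269 and 4050 in LPS against PBS, 3072 and 4454 in LPS+RT against PBS+RT, 5130 and 3754 in PBS+RT against PBS, and 3583 and 4088 in LPS+RT against LPS. At 1000 UMIs per cell, 892 were lower in LPS against PBS, 707 higher and 1098 lower in LPS+RT against PBS+RT, 884 lower in PBS+RT against PBS, and 661 higher and 1017 lower in LPS+RT against LPS. With size factors 451 were higher and 804 lower in LPS against PBS, 371 and 260 in LPS+RT against PBS+RT, 438 and 895 in PBS+RT against PBS, and 309 and 297 in LPS+RT against LPS. Relative to genes of like length, 425 were higher in LPS against PBS, 261 lower in LPS+RT against PBS+RT, 334 higher in PBS+RT against PBS and 313 lower in LPS+RT against LPS. List medians that moved in LPS against PBS were 1.92 for interferon-gamma genes with no filter, -0.48 (size factors), -0.066 (length) and -0.50 (other-type barcodes kept) for MHC class II, -0.042 for naive genes (size factors) and 0.51 for immediate early genes (length). For immunoglobulin genes they were -0.62 both without the deepest 5% and without Jchain and switched cells, -0.58 without the companion-gene members, -0.89 (size factors) and -0.42 (length), and for the BCL2 family 0.071 (1000 UMIs), 1.15 (other-type barcodes kept), 0.22 (size factors), 0.68 (length) and 0.14 (no filter). In LPS+RT against PBS+RT they were 0.44 for type I interferon genes with no filter, 0.32 for MHC class II with size factors, and -0.15 (1000 UMIs) and 0.12 (size factors) for naive genes. In PBS+RT against PBS they were -0.53 and -0.11 for MHC class II and -0.71 and -0.21 for MHC class I, each with size factors and by length, -0.49 for homing genes with size factors, -0.79 (without Jchain and switched cells, and with equal weights), -0.62 (without companion-gene members), -0.95 (size factors), -0.41 (length) and -0.81 (no filter) for immunoglobulin genes, and -0.40 for sensing genes at 1000 UMIs. In LPS+RT against LPS they were -0.92 (1000 UMIs) and -1.89 (no filter) for interferon-gamma genes, -0.49 for NF-kB genes with other-type barcodes kept, 0.31 for MHC class II with those kept and with size factors, and 0.061 for p53 targets with no filter. The log2 ratios that turned round in LPS against PBS were -0.72, -0.080 and -1.22 for Fabp5, -1.57 and -1.44 for Rnf217 and -2.27 and -3.44 for Adamts9. In LPS+RT against PBS+RT they were -0.18 for Ccl3 at 1000 UMIs and -0.099 for Myc with other-type barcodes kept. In PBS+RT against PBS they were 1.01 and 0.82 for Fyb, -1.65 and -1.31 for C7, -0.48 and -0.29 for Slit2, -0.95 for Cdkn1a at 1000 UMIs and -0.018 for Phlda3 with other-type barcodes kept. In LPS+RT against LPS they were 1.88, 0.11, 1.90 and 1.49 for Fabp5, 0.14 for Tmtc2, 0.24 and 0.63 for Sox5, -0.80 for Polr2g, 1.86, 0.25 and 2.62 for Adamts9, -0.95 for C7 and -1.84, -1.74, -1.82 and -0.020 for Cxcl3. Leaving out the 5% of cells with the most UMIs, the companion-gene members or further genes of other types, keeping other-type barcodes, thinning, and weighting each cell equally gave these. The cause was not tested for any of them. At this depth a gene near 20 CPM rests on few UMIs in a library.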

Other observations

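The BCL2 family, which balances survival and death of resting B cells, was not among the lists above. Of 7 genes tested of 18 listed, 2 were at least 1.5-fold higher in LPS than in PBS and 0 lower, beside 15.3% of all genes higher and 6.41% lower. The median log2 ratio was 0.39, beside 0.18 over all genes. It was 0.071 at 1000 UMIs per cell, 0.22 under size factors, 0.68 relative to genes of like length and 1.15 with barcodes that carry genes of other types kept. The 11 members under the filter summed to 0.938 times (0.769 to 1.14) their PBS level in LPS. Bcl2l11, the death activator Bim, measured 167 CPM in LPS+RT, 228 in LPS, 203 in PBS+RT and 106 in PBS, an LPS to PBS ratio of 2.16 (1.86 to 2.51) and a PBS+RT to PBS ratio of 1.92 (1.66 to 2.23). Bcl2, a survival protein, measured 288 CPM in LPS+RT, 299 in LPS, 385 in PBS+RT and 216 in PBS, a PBS+RT to PBS ratio of 1.78 (1.61 to 1.98). PBS was the lowest library for both. Mcl1, a survival protein with a short life, measured 322 CPM in LPS+RT, 491 in LPS, 374 in PBS+RT and 377 in PBS, an LPS+RT to LPS ratio of 0.656 (0.592 to 0.725), and was highest in LPS.

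Variable segments of the antibody genes were read sparsely by the 3′ kit. A UMI of a heavy chain segment was found in 65 of 349 B cells in LPS+RT, 155 of 375 in LPS, 156 of 309 in PBS+RT and 107 of 441 in PBS. Cells were not thinned for these counts, and depth differed between libraries. Only 54 cells had a leading heavy chain segment, and the most common, Ighv1-64 and Ighv5-16, led in 5 cells each. Among 60 cells with a leading kappa segment, Igkv1-117 led in 14 and Igkv1-110 in 12, each in all 4 libraries. No segment led in most cells of this small set.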
